A study of Mus musculus with 104 samples.

Results

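The replication-dependent histone genes were followed across mouse embryos that lack the H3K4 methyltransferase Kmt2b or the 5-methylcytosine oxidases Tet1 and Tet2. Members were all genes whose symbol starts with Hist1h, Hist2h, Hist3h or Hist4h, and 63 of the 22590 genes with a usable name in the Tet1/2 table met this rule. The same 63 were among the 22562 such genes of the Kmt2b table. They comprise 6 linker histone (H1), 14 H2A, 19 H2B, 12 H3 and 12 H4 genes. RefSeq matched all 63 by synonym and placed 51 on chromosome 13, 8 on chromosome 3, 3 on chromosome 11 and 1 on chromosome 6.

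RNA was measured in embryos of 2 mutant lines and their wild types (WT). The Kmt2b set held epiblasts of embryonic day 6.5 (E6.5; 3 WT and 3 Kmt2b-/- samples, called KO), heads of E8.5 (3 WT and 2 KO) and heads of E9.5 (3 WT and 1 KO). The Tet1/2 set held E6.5 epiblasts of Tet1-/-;Tet2-/- embryos (DKO, 2 samples) and E8.5 heads (2 WT and 2 DKO). Its table also has 3 WT epiblast libraries, which are the WT epiblasts of the Kmt2b set, so in the epiblast the Tet1/2 genotype and the set cannot be told apart. A mating of DBA2 males with C57BL/6N females is given for the study's series of tissues, and the strain of the mutants is not given in the sources used here. Heads were cut off near the neck and hold all tissues of the head. The labels do not tie replicates to separate animals, and the p-values therefore cover the spread between libraries, which may be technical.

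Levels are FPKM (fragments per kilobase of transcript and sequencing depth), which are scaled by gene length, and differences are on the log2(FPKM + 1) scale, which understates changes of low genes. The depth behind a value is unknown, since no read counts come with FPKM. The values also look normalized by rank: Dnmt3b, for example, is listed at exactly 624.291 in all 3 WT epiblasts. All 9 columns of the Tet1/2 table, and the 4 columns of E6.5 and E8.5 in the Kmt2b table, appear to share 1 distribution each, so a level follows a gene's rank in its library. The Tet1/2 table has 1 column per library. The Kmt2b table has 1 merged column per group, so its differences have no error, no test and no replicate check.

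Every cell that copies its DNA needs new histones for the daughter strands. The core histones H2A, H2B, H3 and H4 form the nucleosome, H1 binds the linker DNA between nucleosomes, and the genes for all of them sit in clusters of many near-identical copies that are switched on together in S phase. Their mRNAs end in a stem-loop bound by Slbp in place of a poly(A) tail. Smart-seq2, the method used here, primes on poly(A), so what is counted from these genes may be the polyadenylated minority of their transcripts. Near-identical copies also share reads, and how an aligner splits them decides the value of a single copy. Sums over a family are given beside the single genes. They are not free of that split, since FPKM divides by each copy's own length and the columns appear to have been rescaled.

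Of the 63 members, 57 had an entry in the RefSeq promoter table (build GRCm38.p6, a later build than that of the expression tables), which spans 250 bases before to 50 bases after each gene's start. The letters CCAAT, searched on both strands, were in 49 of the 57 windows (86.0%), against 37.4% of all 32851 windows. All windows of H1 (6), H2A (14), H2B (16) and H3 (10) genes held them, and 3 of the 11 H4 windows did. TATAAA was in 33 windows (57.9%, against 13.6% of all), and the octamer ATTTGCAT in 7 of the 14 H2A and 6 of the 16 H2B windows (22.8% of all members, against 1.74% of all windows). A match is a description of letters, not a site of binding. The 150 bases before the start are shown for 6 members on which the results below turn, 5′ to 3′ on the gene's strand, with every match to CCAAT and every match to the motif TATAAA, on either strand, in capitals. Hist1h2ad's match to the latter lies outside the printed stretch.
Hist1h2ag (chr13:22042950-22043099, minus strand): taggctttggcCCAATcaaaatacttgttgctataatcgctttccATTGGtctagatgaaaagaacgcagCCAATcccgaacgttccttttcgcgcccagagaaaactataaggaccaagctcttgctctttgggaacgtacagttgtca
Hist1h2af (chr13:23533725-23533874, plus strand): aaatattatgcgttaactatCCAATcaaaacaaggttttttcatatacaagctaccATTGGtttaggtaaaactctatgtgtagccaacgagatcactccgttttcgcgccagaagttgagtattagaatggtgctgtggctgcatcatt
Hist1h2ad (chr13:23574231-23574380, plus strand): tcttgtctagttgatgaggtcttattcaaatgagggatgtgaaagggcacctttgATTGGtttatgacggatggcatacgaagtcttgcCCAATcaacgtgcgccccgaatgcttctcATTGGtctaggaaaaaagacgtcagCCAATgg
Hist1h4i (chr13:22041363-22041512, minus strand): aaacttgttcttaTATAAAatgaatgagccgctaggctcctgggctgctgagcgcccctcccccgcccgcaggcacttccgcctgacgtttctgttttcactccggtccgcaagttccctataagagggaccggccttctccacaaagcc
Hist1h4d (chr13:23581418-23581567, plus strand): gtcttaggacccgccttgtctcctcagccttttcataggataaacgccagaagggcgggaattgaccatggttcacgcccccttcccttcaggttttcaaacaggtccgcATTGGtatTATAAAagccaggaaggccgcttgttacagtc
Hist2h3b (chr3:96268504-96268653, plus strand): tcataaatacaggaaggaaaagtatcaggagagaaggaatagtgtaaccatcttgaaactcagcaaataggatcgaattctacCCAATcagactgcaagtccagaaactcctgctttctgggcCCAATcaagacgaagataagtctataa

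Before the results, a few facts of the whole series bear on them. Tet1 was at 4.77, 6.29 and 5.02 FPKM in WT epiblasts and at 3.82 and 2.92 in DKO epiblasts, and at 2.55 and 3.33 in WT heads and 1.28 and 1.29 in DKO heads. Tet2 was low throughout, at 0.254, 0.302 and 0.498 FPKM in WT and 0.180 and 0.266 in DKO epiblasts, which overlap, and at 0.430 and 0.488 in WT and 0.251 and 0.383 in DKO heads. Values over a whole gene do not check the loss of a part of it, and the DKO groups are as labelled. Kmt2b (listed as Wbp7) was below its WT level in each KO column, at 0.308 against 0.701 FPKM at E6.5, 0.133 against 0.6003 at E8.5 and 0.0349 against 1.203 at E9.5. All 7 epiblast markers were at 1 FPKM or more in every epiblast library, and 7 or all 8 of the markers of head neural tissue were in every E8.5 and E9.5 head library or column. Markers of visceral endoderm summed to at most 3.44 FPKM in the epiblast libraries. The E9.5 KO value is 1 library, and its column and its sample title name different tissues. Heart muscle markers summed to 2405 FPKM in it, against 20.9 in the E9.5 WT column. In the E8.5 heads of the Tet1/2 table, blood markers summed to 376 FPKM in DKO replicate 1 and to 4.93 in DKO replicate 2, and to 0.345 and 0.215 in the WT heads, while heart muscle markers summed to 29.2 and 188 FPKM in the WT heads and to 8.05 and 4.89 in the DKO heads. The part of these cells in the results below was not tested.

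The 8 H2A genes Hist1h2ad, Hist1h2ah, Hist1h2ai, Hist1h2an, Hist1h2ag, Hist1h2af, Hist1h2ab and Hist1h2ae and the single H4 gene Hist1h4d carried most of what was measured from the clusters. In the Tet1/2 table, all members together made up 0.288% to 1.198% of a library's summed FPKM. The H2A sum was the highest of the families in every library, with 1023, 1083 and 1342 FPKM in the WT epiblasts, against 40.3, 61.3 and 68.2 for H1, 47.9, 77.1 and 91.0 for H2B, 36.9, 64.8 and 73.3 for H3 and 174, 253 and 322 for H4. WT epiblast replicate 1 was the lowest of the 3 in all 5 families. Hist1h4d alone gave 83.3% of the H4 sum averaged over the 9 libraries, and Hist1h1b 66.7% of the H1 sum. The leading gene of the other families changed with the group. Among H3 genes Hist2h3b gave 41.4% and 44.7% of the sum in DKO epiblasts, but 9.13% to 11.1% in WT epiblasts and 6.73% and 6.69% in DKO heads, where Hist1h3c gave 31.1% and 28.1%. Hist1h2ag was the highest H2A gene in WT heads and Hist1h2ad in the other libraries. In H2B, Hist1h2bc had the higher mean in WT epiblasts (11.1 FPKM, against 7.20 for Hist1h2bk), and Hist1h2bk in the other groups.

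H2A and H2B proteins enter the nucleosome as dimers in equal number, and many of their genes lie head to head with a shared promoter region. Levels within such neighbouring pairs were far apart. Averaged over the 9 libraries, Hist1h2ad was at 538 FPKM and its partner Hist1h2bf at 4.003, a ratio of 134. The ratio was 71.2 for Hist1h2an over Hist1h2bp, 37.6 for Hist1h2ai over Hist1h2bl, 27.5 for Hist1h2ag over Hist1h2bj, 25.4 for Hist1h2ah over Hist1h2bk and 17.5 for Hist1h2ae over Hist1h2bg. Hist1h2ak and Hist1h2bn were close in these averages, at 4.53 and 5.43 FPKM, but not in each group. Their means were 0.393 and 4.58 FPKM in WT epiblasts and 9.06 and 4.05 in DKO epiblasts.

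Across all 15 columns, 19 members stayed below 10 FPKM. Of the genes known from the germline, Hist1h1t (a testis linker histone) reached at most 0.996 FPKM, Hist1h2aa was listed at 0 in all columns but DKO epiblast replicate 2 (1.16 FPKM), and Hist1h2ba, a testis H2B, reached at most 1.22 FPKM. The pseudogene Hist3h2bb-ps stood at 3.46 FPKM in WT epiblast replicate 3 and at 1.02 or less in every other column. Of the members with a known polyadenylated transcript, Hist1h1c ranged from 2.04 to 9.29 FPKM over all columns, Hist1h2bc from 5.62 to 22.4 and Hist2h2be from 0.158 to 2.64. Hist1h1c and Hist2h2be were not the highest genes of their families. Hist1h2bc had the highest mean of the H2B genes in WT epiblasts, at 11.1 FPKM.

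**Figure D1:**
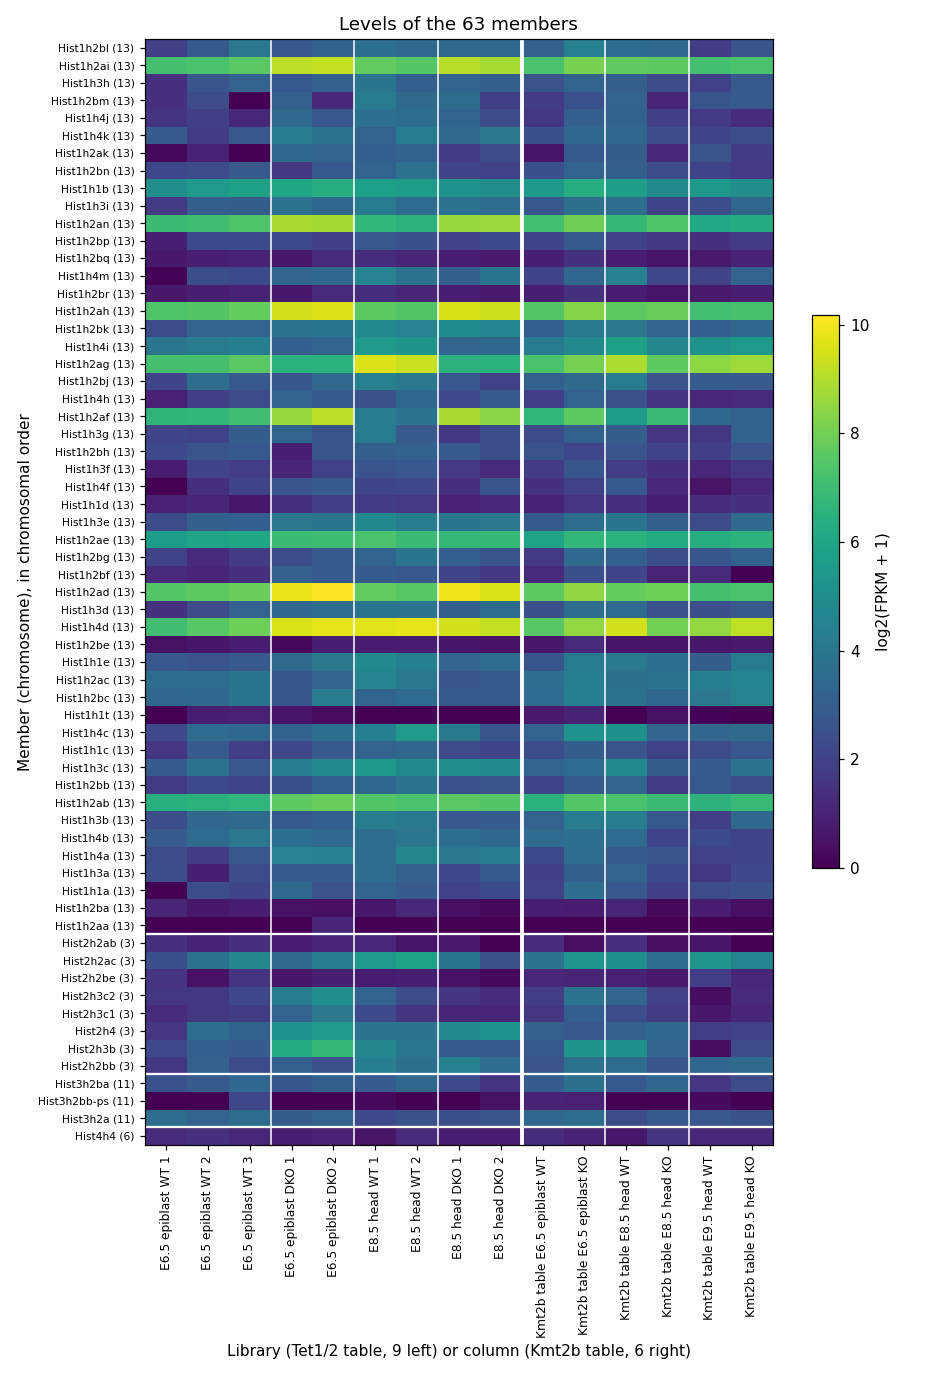
Levels of the 63 members as log2(FPKM + 1) in the 9 libraries of the Tet1/2 table and the 6 columns of the Kmt2b table, with members in chromosomal order (chromosome in parentheses) and white lines between groups and chromosomes. The bright rows are the H2A genes named above and Hist1h4d, and the row of Hist1h2ag is brightest in the WT heads, where it stood at 793 and 636 FPKM.

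**Figure D2:**
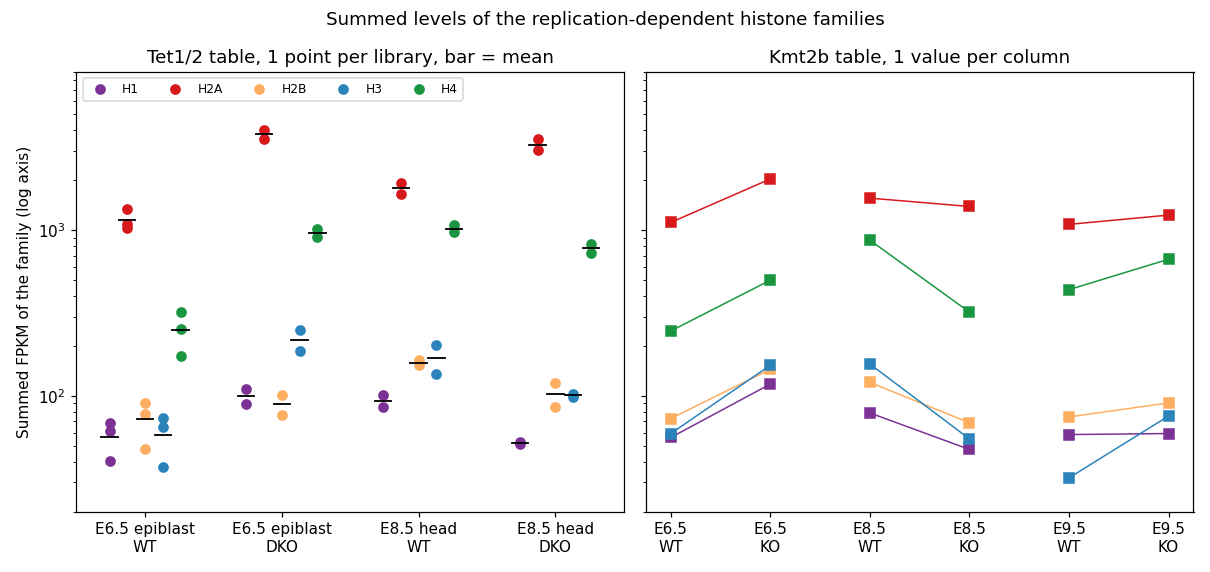
Summed FPKM of each histone family on a log axis. On the left each point is a library of the Tet1/2 table and the bar is the group mean, and on the right each square is a column of the Kmt2b table, with lines joining WT and KO of a stage. The H4 sums run from 174 FPKM in a WT epiblast to 1065 in a WT head, and KO squares lie above WT at E6.5 and below WT at E8.5 for all 5 families.

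The summed RNA of every family was higher in WT heads than in WT epiblasts, though in H2A mostly through Hist1h2ag. Between the WT epiblasts and the WT E8.5 heads of the Tet1/2 table, 31 of the 59 members tested rose and 3 fell (limma, adjusted p under 0.05), where 19.9% of all genes tested were called higher and 17.1% lower. The median difference of the members tested was 1.12, against 0.01 for all genes. The sum of the H4 family was 4.19-fold higher in the heads, that of H3 2.92-fold, H2B 2.26-fold, H1 1.67-fold and H2A 1.56-fold. The H2A sums were 1023, 1083 and 1342 FPKM in the epiblasts and 1931 and 1639 in the heads. Most of that difference lay in Hist1h2ag, at 143, 142 and 187 FPKM in the epiblasts and 793 and 636 in the heads. Stage, tissue and set changed together in this comparison, since the WT epiblasts are samples of the Kmt2b set and the WT heads of the Tet1/2 set, and cannot be told apart.

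All 7 H3 genes, all 7 H4 genes, all 8 H2B genes and all 3 H1 genes that were called rose, while H2A went both ways, with 6 up and 3 down. Hist1h4d stood at 132, 184 and 243 FPKM in the epiblasts and at 820 and 875 in the heads, and rose by 2.22 ± 0.21 (SE; limma adjusted p = 0.00016). The linker gene Hist1h1e was at 5.80, 5.07 and 6.15 FPKM in the epiblasts and at 27.9 and 19.99 in the heads (difference 1.89 ± 0.21, limma adjusted p = 0.000328). Hist1h3c, an H3 gene, went from 6.78, 12.7 and 5.70 to 41.6 and 28.0 FPKM (1.97 ± 0.31, limma adjusted p = 0.00176). In these 3 genes every head lay above every epiblast. The genes that fell were Hist1h2af, Hist1h2an and Hist3h2a. Without WT head replicate 1, 21 members were called in this comparison, and without WT head replicate 2, 24.

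In the Kmt2b table, whose merged WT epiblast column comes from the same WT epiblasts, 21 of 56 members were 2-fold or more higher in the WT E8.5 head and 2 were 2-fold or more lower, where 7.18% and 7% of all genes were. A pseudocount of 5 left 11 past 2-fold. H4 summed to 246 FPKM in the epiblast and 868 in the head, and H3 to 59.1 and 155. From the E8.5 to the E9.5 WT head, 25 members were 2-fold or more lower and none was higher, where 10.3% and 8.76% of all genes were lower and higher. The H3 family was furthest apart, with 11 of its 12 genes past 2-fold lower and a sum of 32.0 FPKM at E9.5, 4.74-fold below E8.5. Hist2h3b went from 33.7 to 0.316 FPKM. The E9.5 columns were not normalized with the others, and their summed FPKM over all genes were 490931 and 504349, against 447532 to 451899 in the other 4 columns. In S phase genes, a list chosen with earlier results known, 8 of 32 were 2-fold or more lower at E9.5 and 1 was higher. Markers of other cells moved as well, with 3 of 4 blood markers and 4 of 5 mesenchyme markers past 2-fold higher and 5 of 6 heart muscle markers past 2-fold lower, and their part in the result was not tested. With a pseudocount of 5 in place of 1, 10 members were past 2-fold between E8.5 and E9.5.

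Loss of Tet1 and Tet2 in the E6.5 epiblast came with higher levels across H2A, H3 and H4. Of the 59 members tested, 26 rose and 3 fell in DKO epiblasts against WT (limma, adjusted p under 0.05), where 20.1% of all genes tested were called higher and 15.2% lower. The median of the members was 0.88, against 0.05 for all genes. The calls that rose were 8 H2A, 6 H4, 5 H3, 4 H2B and 3 H1 genes. Since the WT and DKO epiblasts belong to different sets, set and genotype cannot be told apart here. Marker sums moved in the same libraries. Epiblast markers summed to 2627 and 2514 FPKM in DKO and 1569, 1613 and 1562 in WT. Of these 7 markers, 2 were called higher and 1 lower. Dnmt3b went from 624 in each WT to 1196 in each DKO library, and Tdgf1 from 213, 177 and 188 to 97.3 and 43.7. Head neural markers summed to 10.4 and 14.2 against 6.20, 6.76 and 6.38, and extraembryonic ectoderm markers to 13.7 and 17.7 against 28.1, 24.4 and 27.5. Most of the latter sum was Eomes, at 11.8 and 14.8 against 26.1, 22.6 and 25.0. Elf5, Cdx2 and Esrrb were below 1 FPKM in all of these libraries. The part of the cells behind these markers in the result was not tested.

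The family sums of the DKO epiblasts were 3527 and 4034 FPKM for H2A, 903 and 1011 for H4, 187 and 248 for H3 and 89.0 and 109 for H1. Each of these lay above all 3 WT epiblasts, by 3.30-fold for H2A, 3.94-fold for H4, 3.80-fold for H3 and 1.77-fold for H1. H2B summed to 76.7 and 101 FPKM, overlapping the WT libraries, and its difference of 0.34 was under the spread between libraries of a group (SD 0.36 on the log2 scale).

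The H3 genes of chromosome 3 stood out by size. Hist2h3b, which encodes an H3.2 protein, was at 3.70, 7.19 and 6.69 FPKM in the WT epiblasts and at 77.5 and 111 in the DKO epiblasts, a rise of 3.81 ± 0.29 (SE; limma adjusted p = 0.000207). Hist2h3c2, in the same cluster, went from 2.11, 2.15 and 3.57 to 16.9 and 30.5 FPKM (2.74 ± 0.34), and Hist2h3c1 from 1.47, 2.12 and 2.42 to 8.18 and 15.7 (2.06 ± 0.30). The 3 genes together gave 17.3% to 19.7% of the H3 sum in WT epiblasts and 54.7% and 63.3% in DKO epiblasts. Hist2h4, the H4 gene of the same cluster, was at 2.08, 11.6 and 7.9996 FPKM in WT and at 35.4 and 42.8 in DKO (2.503 ± 0.488, limma adjusted p = 0.00608). These copies share near-identical coding sequence, and their reads may be split among them.

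Among the H2A genes, Hist1h2ad rose from 181, 195 and 236 to 942 and 1150 FPKM (2.36 ± 0.14), and Hist1h2af, Hist1h2ah, Hist1h2ai and Hist1h2an rose by 1.70 to 2.06. Hist1h2ak, which is low in WT epiblasts (0.176, 1.003 and 0 FPKM), was at 9.43 and 8.69 in DKO. Hist1h4d was at 768 and 875 FPKM in DKO epiblasts and rose by 2.18 ± 0.21, to about the level of WT heads (820 and 875). The 3 members that fell were Hist1h2ag, from 143, 142 and 187 to 89.4 and 89.7 FPKM (a decrease by 0.79), Hist1h4i, from 14.8, 18.0 and 20.2 to 7.23 and 8.54, and Hist1h2ac, from 10.9, 11.2 and 14.0 to 5.61 and 8.46. No DKO epiblast overlapped the WT range in any of the 3.

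In the E8.5 head the loss of Tet1 and Tet2 came with more RNA from 5 H2A genes and less from Hist1h2ag and Hist1h4i. Of the 56 tested, 5 rose and 2 fell in DKO heads against WT heads, where only 0.258% of all genes tested were called higher and 0.175% lower. At an unadjusted p under 0.05 there were 32 members, counted in either direction. The share of all genes at that looser threshold was not counted, so this number has no background beside it. The 5 that rose, Hist1h2af, Hist1h2ad, Hist1h2an, Hist1h2ah and Hist1h2ai, are all H2A genes, and the 2 that fell were the H2A gene Hist1h2ag and the H4 gene Hist1h4i. All 5 had also risen and both had also fallen in the DKO epiblast, where 20.1% of all genes tested were called higher and 15.2% lower. How many of all genes called in the DKO head were called the same way in the epiblast was not counted. The libraries contrasted differ, but both fits draw their spread from libraries they share, so the 2 sets of calls are not independent. The H2A copies also share reads.

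Hist1h2ag and Hist1h2af moved furthest and in opposite directions. Hist1h2ag stood at 793 and 636 FPKM in WT heads and at 91.8 and 89.5 in DKO heads (difference -2.96 ± 0.11 SE, limma adjusted p = 0.00181). Hist1h2af stood at 18.0 and 13.6 FPKM in WT heads and at 472 and 341 in DKO heads (4.59 ± 0.25, limma adjusted p = 0.00441). Hist1h2ad was at 213 and 185 FPKM in WT and 955 and 781 in DKO heads (2.12 ± 0.14). Hist1h4i, which lies beside Hist1h2ag, was at 44.5 and 37.7 FPKM in WT and 8.86 and 9.72 in DKO heads (-2.03 ± 0.15). The neighbour on the other side, Hist1h2bj, was at 20.6 and 15.7 FPKM in WT and 5.85 and 3.05 in DKO heads, and its difference of -1.85 was not called. The H2A gene Hist2h2ac, on chromosome 3, was at 42.7 and 59.2 FPKM in WT and 14.0 and 4.71 in DKO heads and was not called either. Hist1h2ag was the single member called whichever head library was left out. The number of members called was 1 without DKO head replicate 1, 4 without DKO head replicate 2, and 3 without either WT head. It was 15 and 14 without DKO epiblast replicate 1 and 2, which share the fit.

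The sums over families in DKO heads went the other way for all but H2A. H2A summed to 3523 and 3038 FPKM in DKO heads, against 1931 and 1639 in WT heads (1.84-fold higher). H1 was at 52.6 and 51.2 against 101 and 85.6 (1.78-fold lower), H3 at 98.6 and 102 against 203 and 135 (1.64-fold lower), H2B at 119 and 85.6 against 164 and 153 (1.57-fold lower) and H4 at 821 and 731 against 971 and 1065 (1.31-fold lower). WT and DKO heads did not overlap in any family. Blood markers were high in DKO head replicate 1, as given above, and their part in these differences was not tested. All 12 H3 genes and all 5 H1 genes tested were lower in DKO heads by their mean and none of them was called.

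Whether the effect of the loss differs between the stages was tested as the difference of the differences. Of 59 members, 20 were called with a lower DKO effect in the head than in the epiblast and 1, Hist1h2af, with a higher one, where 15.5% and 10.9% of all genes tested were called. The median over members was -1.33, against -0.06 for all genes. The calls covered all families, with 5 H3, 4 H4, 5 H2A, 4 H2B and 3 H1 genes. Hist2h3b had the largest size, at -5.20 ± 0.44 (limma adjusted p = 0.000792). It stood at 24.9 and 14.7 FPKM in WT heads and at 6.63 and 6.85 in DKO heads, below WT, after standing above WT in the epiblast. Hist1h4d (-2.55 ± 0.32) and Hist1h2ag (-2.16 ± 0.20) were called too, and Hist1h2ad, Hist1h2ah, Hist1h2an and Hist1h2ai, which were higher in DKO at both stages, were not. Without DKO head replicate 1 the count was 12 in place of 21. The WT epiblasts come from the other set, which touches this comparison as well.

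**Figure D3:**
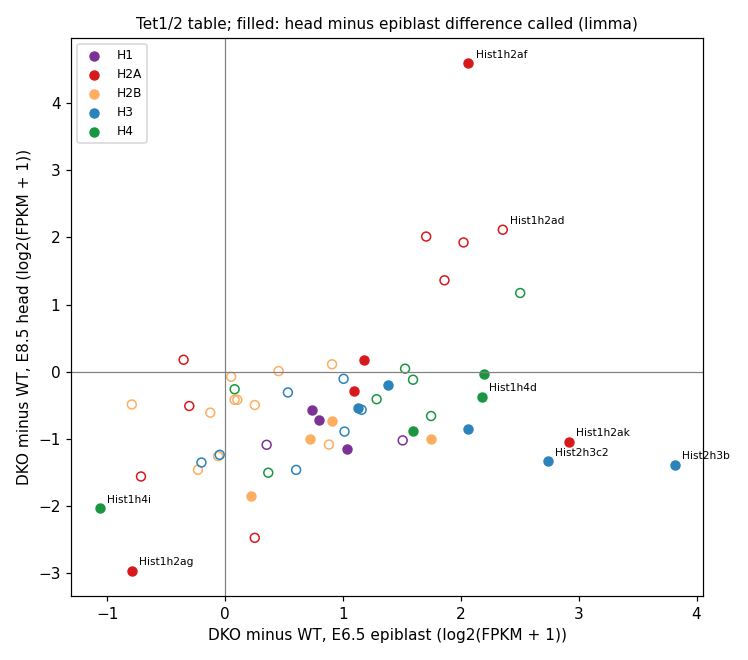
Difference between DKO and WT on the log2(FPKM + 1) scale for each member tested at both stages, in the E6.5 epiblast (x axis) and the E8.5 head (y axis), coloured by family, with filled points for members whose difference itself differed between stages (limma). Most H3, H4 and H1 genes lie right of 0 and below 0, the 5 H2A genes called in the head lie in the upper right, and Hist1h2ag and Hist1h4i in the lower left.

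In the DKO the course from epiblast to head had few calls. Of 56 members, 2 were higher and 10 lower in DKO heads than in DKO epiblasts, where 23.4% and 26.4% of all genes tested were called. The H3 genes of chromosome 3 fell most, Hist2h3b by 3.60, Hist2h3c2 by 3.13 and Hist2h3c1 by 2.54. Hist1h2bk rose by 0.90 and Hist2h2bb, an H2B gene beside Hist2h3b, by 1.24. Without WT head replicate 1 or 2 or DKO head replicate 1, 7 members were called.

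The mix of H2A copies differed between the groups of libraries. Hist1h2ag gave 13.1% to 14.0% of the H2A sum in the 3 WT epiblasts, 41.1% and 38.8% in the WT heads, 2.53% and 2.22% in the DKO epiblasts and 2.61% and 2.94% in the DKO heads. Hist1h2af gave 9.66% to 9.80%, 0.932% and 0.829%, 10.9% and 14.1%, and 13.4% and 11.2% in the same order. The ratio of Hist1h2ag to Hist1h2af was therefore 1.36 to 1.43 in WT epiblasts, 44.1 and 46.8 in WT heads, and 0.158 to 0.263 in the 4 DKO libraries of both tissues. WT epiblasts come from the Kmt2b set and the other libraries from the Tet1/2 set, so set cannot be told apart from genotype among epiblasts or from stage among WT libraries. The 4 DKO libraries, of 1 set, had like ratios at both stages. Replicates of a group lay close together in these shares while WT heads lay far from the other groups for both genes. Both promoters printed above hold CCAAT letters in both directions, and neither window holds TATAAA. These are copies that share reads, and whether the difference lies in transcription or in the assignment of reads was not tested.

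In the Kmt2b table the same pair differed between the WT and KO heads of E8.5. The ratio of Hist1h2ag to Hist1h2af was 1.42 in the WT and 1.35 in the KO epiblast, 10.7 in the WT and 1.70 in the KO head of E8.5, and 35.8 in the WT and 52.5 in the KO at E9.5. The WT E8.5 heads of the 2 sets thus lay apart, at 10.7 here and at 44.1 and 46.8 in the Tet1/2 table. At E8.5, Hist1h2ag was at 483 FPKM in WT and 201 in KO, and Hist1h2af at 45.3 and 118. The share of Hist1h2ag in the H2A sum of the KO head was 14.5%, near that of the epiblasts, against 31.0% in WT.

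**Figure D4:**
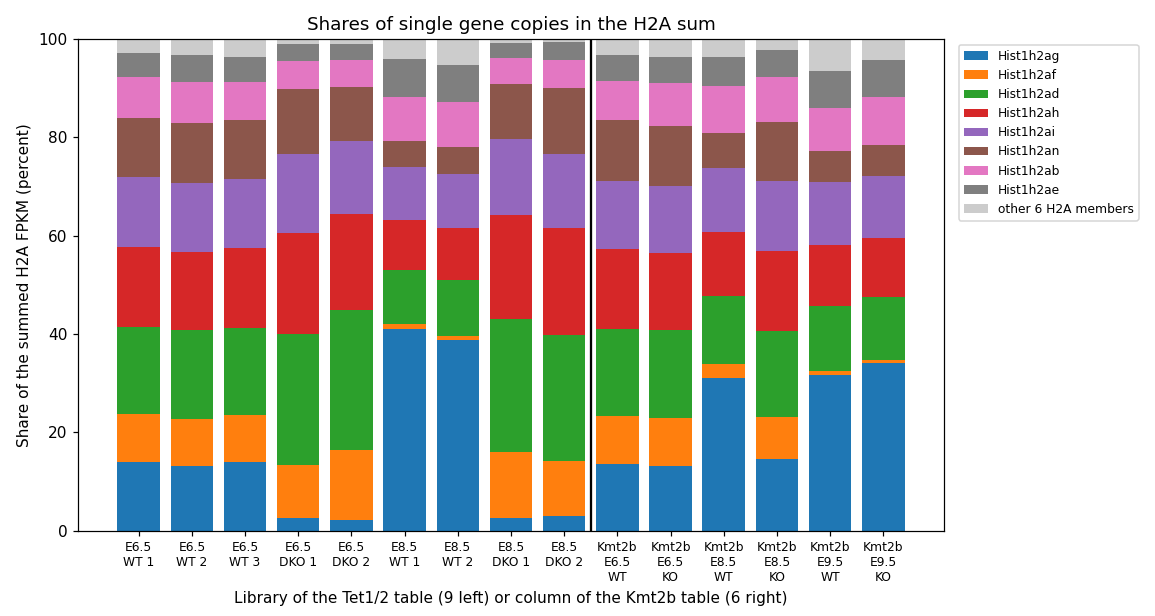
Share of each H2A gene in the summed H2A FPKM, in percent, for the 9 libraries of the Tet1/2 table and the 6 columns of the Kmt2b table. The Hist1h2ag segment at the bottom takes 38.8% or more in the WT E8.5 heads of the Tet1/2 table and under 3% in its 4 DKO libraries.

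Loss of Kmt2b came with about 2-fold more histone RNA in the E6.5 epiblast. In the KO column 21 of 56 members were 2-fold or more higher than WT and none was lower, where 1.08% of all genes were 2-fold or more higher and 0.614% lower. By sign, 51 members lay above WT and 5 below, and the median difference was 0.87, against -0.02 for all genes. All 5 family sums were higher in the KO: H3 with 153 against 59.1 FPKM (2.56-fold), H1 with 118 against 56.0 (2.08-fold), H4 with 498 against 246 (2.02-fold), H2B with 144 against 72.9 (1.97-fold) and H2A with 2033 against 1111 (1.83-fold). For comparison, the SD between the 3 WT epiblast libraries in the Tet1/2 table, on the log2 scale, was 0.21 for the H2A sum, 0.39 for H1, 0.44 for H4, 0.47 for H2B and 0.52 for H3. The KO sums lay above the highest WT library in all 5 families, though the tables were normalized separately.

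The largest differences belonged to Hist2h3b (6.04 FPKM in WT and 37.4 in KO, difference 2.45), Hist1h2ak (0.536 and 5.89, 2.16), Hist2h3c2 (2.59 and 13.7, 2.03), Hist1h4c (8.30 and 35.2, 1.96) and Hist1h2bg (2.31 and 10.02, 1.73). Hist2h3b, Hist1h2ak and Hist2h3c2 were also among the members that rose most in the DKO epiblast, a comparison that shares its WT epiblasts with this one. Among members at 5 FPKM or more in the higher column, Hist1h2bh (5.04 FPKM in WT and 3.45 in KO) and Hist2h4 (7.67 and 5.73) were the furthest below WT, and neither was past 2-fold. Unlike in the DKO epiblast, the mix of H2A copies was near that of WT, with Hist1h2ag at 13.2% of the sum against 13.7% and Hist1h2af at 9.80% against 9.60%. Just past the threshold lay Hist1h4d (difference 1.014), and just short of it Hist1h3i (0.99). Measured against single WT epiblast libraries of the Tet1/2 table, 37 members were 2-fold or more higher against replicate 1 and 13 against replicate 3, with none lower in either. A pseudocount of 5 turned the 21 into 8.

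In the E8.5 head the sign was the reverse. In the KO column 23 of 56 members were 2-fold or more lower than WT and 1 was higher, where 2.51% of all genes were 2-fold or more lower and 2.21% higher. The 24 became 12 with a pseudocount of 5, of which 11 were lower. The median difference was -0.81, against -0.01 for all genes. The H3 sum was 54.9 FPKM in KO and 155 in WT (2.80-fold lower) and the H4 sum 319 and 868 (2.71-fold lower). H2B was 1.74-fold lower, H1 1.65-fold lower and H2A 1.12-fold lower, and the H2A difference of -0.17 was under the SD of 0.21 seen among WT epiblast libraries. Of the 12 genes of each family, 7 H3 and 8 H4 genes were past 2-fold lower, against 4 of 13 H2A, 4 of 14 H2B and none of 5 H1 genes tested.

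Hist1h4m was furthest below WT (20.4 FPKM in WT and 3.47 in KO, difference -2.26), followed by Hist1h2bm (8.21 and 1.11, -2.13) and Hist1h2ak (6.91 and 1.19, -1.85). Hist2h3b was at 33.7 and 8.82 FPKM, Hist1h4c at 33.8 and 9.06, Hist1h3c at 26.6 and 7.08 and Hist1h4d at 706 and 253. Hist1h2af, at 45.3 FPKM in WT and 118 in KO, was the member past 2-fold higher, and among members at 5 FPKM or more Hist1h2an (111 and 166) and Hist3h2ba (5.96 and 9.20) came next. Of the 21 members past 2-fold higher in the KO epiblast, 11 were past 2-fold lower in the KO E8.5 head. Of all 56 members, 23 (41.1%) were past 2-fold lower there. How many of all genes moved both ways was not counted. The comparisons share no column, but their columns appear to share a normalization. Markers of blood summed to 98.1 FPKM in the WT and 4.995 in the KO column, and those of head neural tissue to 138 and 91.6. Markers of the epiblast summed to 151 and 194, with 4 of 7 past 2-fold higher in the KO. The 4 RNAs without a poly(A) tail that the table lists of 11 (Rmrp, Rpph1, Terc and Vaultrc5) summed to 11.8 and 3.24. Their part in the result was not tested.

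At E9.5 the KO library was close to the WT column in most members. Of 56, 6 were 2-fold or more higher (Hist2h3b, Hist1h3g, Hist1h3b, Hist1h1e, Hist1h4m and Hist1h3e) and 1, Hist1h2bf, was lower, where 4.69% and 3.57% of all genes were. With a pseudocount of 0.1 there were 17 past 2-fold, and with 5 there were 0. All 12 H3 genes were above WT, and their sum was 75.5 FPKM against 32.0 (2.32-fold). H4 was at 666 against 437 FPKM, H2A at 1230 against 1082, H2B at 90.6 against 74.5 and H1 at 59.2 against 58.3. Hist1h3g was at 2.10 FPKM in WT and 7.95 in KO, Hist1h3b at 2.69 and 9.61, and the linker gene Hist1h1e at 6.97 and 16.6. Below WT lay 14 members. Among members at 5 FPKM or more in the higher column, the furthest below were Hist1h2ak (5.32 and 2.39), the H2A gene Hist2h2ac (39.7 and 23.0) and Hist1h1b (41.8 and 30.3), none of them past 2-fold. This comparison rests on the 1 library with discordant tissue names, and the heart muscle markers given above were high in it.

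**Figure D5:**
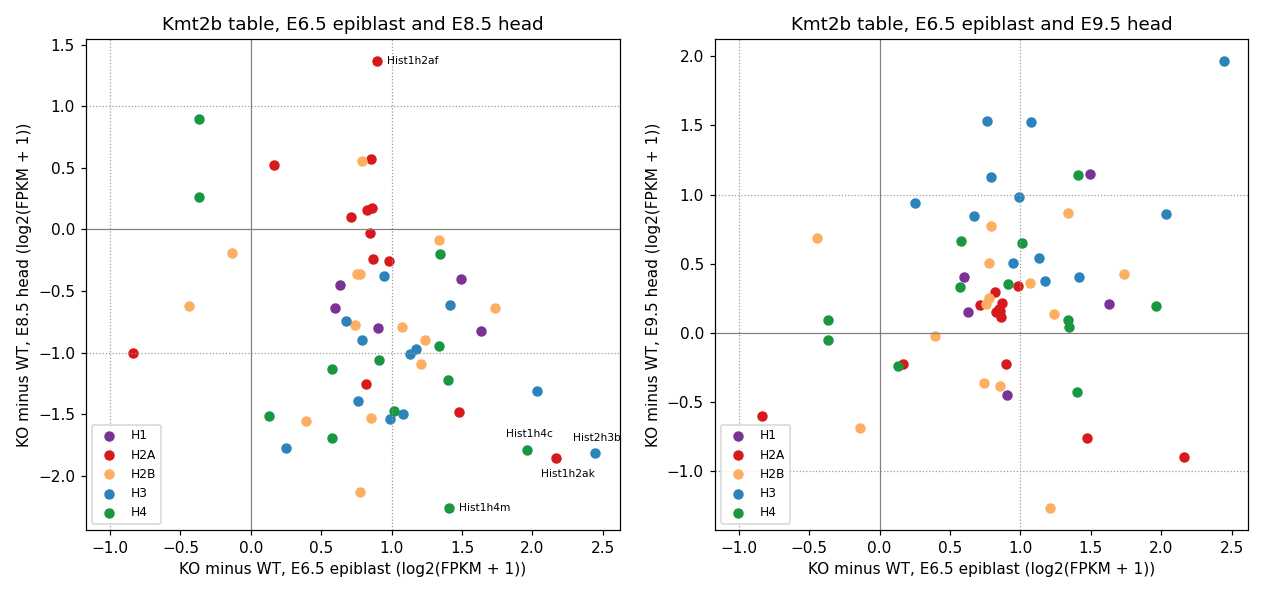
Difference between Kmt2b KO and WT on the log2(FPKM + 1) scale for the 56 members tested, with the E6.5 epiblast on both x axes and the E8.5 head (left) or the E9.5 head (right) on the y axis, and dotted lines at 2-fold. Most points lie right of 0 in the epiblast (51 of 56) and below 0 in the E8.5 head (47 of 56), while 42 of 56 lie above 0 at E9.5.

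Genes that act on the histone clusters were measured beside them. A list of 17 genes of histone gene transcription and histone mRNA processing was chosen, like the ones below, with earlier results of these data known. Of these, 7 rose and none fell in the DKO epiblast, where 20.1% of all genes tested were called higher and 15.2% lower. The largest rise was that of Srrt, a partner of the cap-binding complex, with 1.26. None of the 17 was called in the DKO head, where only 0.258% and 0.175% of all genes were. Npat, the activator of histone genes in S phase, was at 9.31, 9.67 and 10.1 FPKM in WT epiblasts, 8.47 and 10.7 in DKO epiblasts, 6.41 and 7.21 in WT heads and 5.75 and 6.57 in DKO heads. Slbp, the stem-loop binding protein, was between 175 and 245 FPKM in every library, and neither gene was called for the DKO at either stage. Casp8ap2, Lsm10 and Lsm11, which take part in transcription and cleavage of histone RNA, were not called for the DKO either. In the Kmt2b table none of the 17 was past 2-fold at E6.5 or E8.5, with medians of 0.04 and -0.05. Of all genes, 1.08% were 2-fold or more higher and 0.614% lower at E6.5, and 2.21% and 2.51% at E8.5. Slbp was at 190 and 197 FPKM at E6.5 and at 237 and 211 at E8.5 in WT and KO.

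Chaperones carry new histones to the DNA, and S phase genes report on replication. In the DKO epiblast 11 of 21 chaperone genes rose and 2 fell. Chaf1a, a subunit of the chromatin assembly factor CAF-1, rose by 0.83 and Nasp, a chaperone of H3-H4 and H1, by 0.41, and Asf1b, which hands H3-H4 to CAF-1, fell by 0.69. Of 32 S phase genes 15 rose, among them Mcm5 by 0.88, and 3 fell, Pcna by 0.63, Ccne2 by 0.74 and Rfc4 by 0.26. The shares are to be read against the 20.1% and 15.2% of all genes given above. In the DKO head, where few genes of any kind were called, no chaperone or S phase gene was. By the test of the difference between stages, 11 of 21 chaperone genes and 13 of 32 S phase genes had a lower DKO effect in the head and 2 and 4 a higher one, beside 15.5% and 10.9% of all genes. Pcna was at 149 and 150.4 FPKM in WT and 195 and 189 in DKO heads. In the Kmt2b table no chaperone or S phase gene was past 2-fold at E6.5 or E8.5. Few of all genes were: 1.08% higher and 0.614% lower at E6.5, and 2.21% and 2.51% at E8.5. In lists of this size, none past 2-fold is near those shares. The part of replication in the results for the members was not tested. Ccne1 was at 211 and 201 FPKM at E6.5 and at 132 and 114 at E8.5 in WT and KO.

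Replacement histones generally have mRNAs with a poly(A) tail and are also made outside S phase. The mRNA form of each listed gene, H2afx among them, was not examined. In the DKO epiblast 4 of 11 replacement histone genes rose and 1, H2afz, fell by 0.58, beside 20.1% and 15.2% of all genes. The median of the 11 was -0.07. In the WT course 8 rose and 1 fell (median 0.82), beside 19.9% and 17.1% of all genes. By the test between stages, 5 had a lower and 1 a higher DKO effect in the head, beside 15.5% and 10.9%. H2afx, which encodes the H2A variant marked at DNA breaks, was at 200.3, 212 and 193 FPKM in WT epiblasts, 347 and 306 in DKO epiblasts, 381 and 336 in WT heads and 198 and 216 in DKO heads. Whether this list differed from the members was not tested. H3f3a and H3f3b, which both encode H3.3, were at 754 to 1047 FPKM in all epiblast libraries and were not called for the DKO at either stage. In the Kmt2b KO epiblast 1 of the 11 was past 2-fold lower and none higher, and at E8.5 none was past 2-fold in either direction. These counts are to be read against the shares of all genes given above for the Kmt2b table. The 4 RNAs without a poly(A) tail summed to 11.8 to 24.6 FPKM in WT epiblasts and 10.9 and 22.4 in DKO epiblasts. In heads they summed to 6.87 and 23.9 in WT and 32.3 and 15.7 in DKO. The WT and KO columns of the Kmt2b table had 17.5 and 12.9 in the epiblast and 11.8 and 3.24 in the E8.5 head. The groups of the Tet1/2 table overlapped in this sum, and none of the RNAs tested was called for the DKO. At least 1 of the 4 was listed at 0 in every library of that table but WT head replicate 1. Whether these RNAs report on how far such RNA was caught was not tested.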

How the data were processed

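RNA-seq tables deposited by the authors were used as given. Their unit is FPKM, and the submitters' processing notes name TopHat2 2.0.11, Cufflinks 2.0.2 and the build mm9. Libraries were made with Smart-seq2, per the labels' protocols. Groups came from the sample labels. There were 22593 rows for Tet1/2 and 22592 for Kmt2b. Left out were 27 date-like gene names (Kmt2b only) and 3 small RNA rows in each. In the Kmt2b table, 2 columns of no listed sample were not used. From the values, columns appear quantile normalized within each table, apart from the E9.5 columns. Depth is unknown.

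The Tet1/2 table was fitted with limma 3.58.1 (R 4.3.3; eBayes with trend) on log2(FPKM + 1), over all genes at 1 FPKM or more in at least 2 libraries, with Benjamini-Hochberg adjustment over all genes, two-sided, threshold 0.05. DKO against WT heads and the DKO course used 6 libraries, the other contrasts 9. The script was tested on simulated data. A limma test was planned for the Kmt2b table and could not be run with merged columns, so differences of 2-fold or more were counted, without p. Family sums got no p. Motifs were searched in RefSeq promoter windows (GRCm38.p6).

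Members and gene lists were chosen with earlier results of these data known. Genes named were, by rule, members called by limma, the 3 largest differences in each direction per Kmt2b stage with at least 5 FPKM in the higher column, the 3 highest members of each family, the members of the poly(A) and germline lists, and fixed genes of the other lists. Values in every library are printed for those the results turn on and the rest are given as counts. Alternatives were other pseudocounts, no filter, other fits and scalings, a replicate block, and each library left out. Same-numbered libraries had correlations of -0.00921 to 0.193 in their deviations from group means, so the numbers were not taken to pair them. Methylation files were not analysed here, since no annotation of their build was used.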

Additional observations from a re-analysis of the deposited data

Results flagged for a closer look

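For 21 members the DKO effect differed between the E8.5 head and the E6.5 epiblast by the test of the difference itself (limma, adjusted p under 0.05). Values are the head effect minus the epiblast effect, on the log2(FPKM + 1) scale. Among H3 genes it was -5.20 for Hist2h3b, -4.06 for Hist2h3c2, -2.91 for Hist2h3c1, -1.66 for Hist1h3e and -1.57 for Hist1h3c. Among H4 genes it was -2.55 for Hist1h4d, -2.48 for Hist1h4j, -2.22 for Hist1h4a and -0.97 for Hist1h4i. Among H2A genes it was -3.96 for Hist1h2ak, -2.16 for Hist1h2ag, -1.38 for Hist1h2ae and -1.01 for Hist1h2ab, and 2.53 for Hist1h2af, the one with a higher effect in the head. Among H2B genes it was -2.75 for Hist1h2bf, -2.07 for Hist1h2bj, -1.72 for Hist1h2bb and -1.63 for Hist1h2bg. The linker genes Hist1h1e, Hist1h1d and Hist1h1b had -2.18, -1.51 and -1.30. The WT epiblasts come from the other set, so set and genotype cannot be told apart on the epiblast side.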

How the results depend on the processing

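No alternative reversed the direction of a called result. Leaving out 1 library moved the members called from 7 to between 1 and 15 for DKO heads, from 29 to between 24 and 28 for DKO epiblasts, from 21 to between 12 and 26 for the difference between stages, from 34 to between 21 and 38 for the WT course and from 12 to between 7 and 15 for the DKO course. Same replicate numbers were not taken to pair the libraries, though the check cannot show that pairing is absent. With the replicate block 7, 28, 25, 30 and 10 members were called in the same order. With a pseudocount of 5, the members past 2-fold numbered 8 in the Kmt2b KO epiblast, 12 in the E8.5 head, 0 in the E9.5 head, 11 between WT E6.5 and E8.5 and 10 between WT E8.5 and E9.5. With a pseudocount of 0.1 there were 17 in the E9.5 head. Against WT epiblast replicate 1 or 3 of the Tet1/2 table, the KO epiblast had 37 or 13. Without the highest member of each family, the DKO epiblast sums differed by 1.54 for H2A, 1.27 for H3 and 1.14 for H4, the DKO head sums by -1.19 for H1 and 0.61 for H2A, and the Kmt2b E9.5 sum of H1 by 0.77. Without a filter on low values 6, 22, 18, 23 and 8 members were called. The cause of these shifts was not tested. Depth is unknown, so low members carry an unknown counting error.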
